A study of Mus musculus with 9 samples.

Results

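The genes described here are those with more RNA in hearts given isoprenaline together with phenylephrine (ISO/PE) than in hearts given isoprenaline alone (ISO), and with no more RNA in ISO hearts than in control hearts (Ctr). They are 99 of the 15149 genes with a transcript in both count tables. Each was chosen by its measured level: a mean level of at least 2 CPM in ISO/PE hearts, a log2 ratio of mean ISO/PE over mean ISO of at least 0.6, a log2 ratio of mean ISO over mean Ctr of 0 or less, and a lowest ISO/PE heart above the highest ISO heart. CPM is the depth-scaled read count of a gene: the raw count of its transcript with the most reads, as a share of all counts kept in that heart and multiplied by 1000000, and 0.5 CPM was added to both means of every log2 ratio. Since the group means selected the genes, ratios between groups are given as descriptions and carry no p-value.

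RNA came from right and left ventricular tissue of 9 wild-type C57Bl6N mice, 3 in each group. The ISO/PE mice (1 female and 2 males) received isoprenaline and phenylephrine at 30 mg/kg per day each by osmotic minipump for 96 h, and the ISO mice (1 female and 2 males) received isoprenaline alone at the same dose for the same time. The Ctr mice (2 females and 1 male) are labelled controls and belong to 0 d by the study's account, and no source used here gives them a pump, so surgery and the 4 d between cannot be told apart from treatment in a comparison with Ctr. The labels give an age of 2 to 3 months, and the methods of the study give another range. No group received phenylephrine alone, and a gene called higher in ISO/PE here is higher in the presence of isoprenaline.

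Isoprenaline activates beta-adrenoceptors, which act mainly through cyclic AMP, and phenylephrine activates alpha1-adrenoceptors, which couple through Gq to phospholipase C, protein kinase C and calcium. In cultured cardiomyocytes alpha1-adrenergic agonists are a classic stimulus of hypertrophic growth, in which natriuretic peptides and fetal genes are induced and protein synthesis goes up. A cell that makes more protein also needs chaperones. Those of the cytosol (the heat shock proteins) are controlled by heat shock factors, and those of the endoplasmic reticulum (ER) by the unfolded protein response with its branches through ATF6, IRE1 with XBP1, and PERK with ATF4.

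Library depth was 10172249 to 14477063 counts per heart over the transcripts kept, and all 99 genes passed the filter on low counts of the edgeR fit. The lowest count of any of them in any heart was 5. All 10 cardiomyocyte markers were present, with summed levels of 38203 to 52509 CPM in ISO/PE hearts, 57924 to 63850 CPM in ISO hearts and 70147 to 76592 CPM in Ctr hearts. In the fit described below, 6 of the 10 were called lower in ISO/PE vs. Ctr, beside 10.1% of all genes. In ISO/PE vs. ISO 2 were lower (0 without ISO female2), beside 2.81%, and in ISO vs. Ctr 2, beside 2.99%. The study reported cardiomyocyte markers such as Ryr2 and Ttn as unchanged vs. control in both treated groups. Summed markers of activated fibroblasts stood at 4597 to 6280 CPM in ISO/PE hearts, 1218 to 2843 CPM in ISO hearts and 163 to 176 CPM in Ctr hearts. In such bulk RNA, fewer cells of a type and less RNA per cell cannot be told apart. Library ISO/PE male2 stood apart for heat shock genes: it was the highest ISO/PE heart for 22 of 22 genes of that list. Without it 16 of the 99 genes were not kept and 83 were, the same number as without ISO/PE female2. Without ISO female2, 73 were kept.

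Before the levels, 5 promoters are shown that share a motif. The ER stress element, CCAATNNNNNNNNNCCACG, is a sequence to which NF-Y and ATF6 bind in front of ER chaperone genes. It was searched on both strands, after the genes were known, in the window from 250 bases before to 50 after each RefSeq gene start, which the RefSeq table (GRCm38.p6) gave for 71 of the 99 genes. It was present for 5 of these 71 (7.04%), against 37 of all 27025 genes with a promoter in the table (0.137%) and 16 of 10341 genes at 2 CPM or more in ISO/PE hearts (0.155%). All 5 are ER folding genes: Hspa5 (chr2:34771840-34772089, plus strand), Pdia6 (chr12:17266339-17266588, plus strand), Hsp90b1 (chr10:86705445-86705694, minus strand), Calr (chr8:84846932-84847181, minus strand) and Creld2 (chr15:88819396-88819645, plus strand). The 250 bases up to the start are printed 5′ to 3′ on the strand of the gene, with the element in capitals on whichever strand it lies. Hsp90b1 has 2 copies.
Hspa5: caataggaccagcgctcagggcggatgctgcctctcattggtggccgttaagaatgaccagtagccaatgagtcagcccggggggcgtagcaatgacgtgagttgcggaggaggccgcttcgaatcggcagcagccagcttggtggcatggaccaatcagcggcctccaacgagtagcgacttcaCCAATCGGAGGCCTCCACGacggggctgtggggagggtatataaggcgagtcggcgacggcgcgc
Pdia6: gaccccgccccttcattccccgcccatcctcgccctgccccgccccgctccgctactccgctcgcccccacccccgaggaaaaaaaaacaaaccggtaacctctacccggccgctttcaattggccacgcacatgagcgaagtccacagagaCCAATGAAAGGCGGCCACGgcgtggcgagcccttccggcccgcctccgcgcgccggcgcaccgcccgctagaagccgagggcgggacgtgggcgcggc
Hsp90b1: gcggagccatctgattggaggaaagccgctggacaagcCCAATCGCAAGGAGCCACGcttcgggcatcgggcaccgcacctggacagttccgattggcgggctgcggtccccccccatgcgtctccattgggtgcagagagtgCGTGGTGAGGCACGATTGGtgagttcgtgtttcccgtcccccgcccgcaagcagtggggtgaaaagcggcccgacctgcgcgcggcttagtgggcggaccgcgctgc
Calr: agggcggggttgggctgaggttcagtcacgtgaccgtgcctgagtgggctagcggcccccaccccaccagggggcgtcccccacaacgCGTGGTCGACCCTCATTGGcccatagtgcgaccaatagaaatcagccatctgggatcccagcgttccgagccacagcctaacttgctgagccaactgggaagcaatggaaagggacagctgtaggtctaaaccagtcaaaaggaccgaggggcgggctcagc
Creld2: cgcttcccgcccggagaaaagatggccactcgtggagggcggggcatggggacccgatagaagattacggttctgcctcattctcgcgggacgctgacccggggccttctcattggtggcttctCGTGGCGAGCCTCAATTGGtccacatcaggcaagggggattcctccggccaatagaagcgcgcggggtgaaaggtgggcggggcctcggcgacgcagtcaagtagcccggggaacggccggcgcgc

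Of the 20 genes of the ER list, 18 had a promoter in the table and 6 held the element, namely these 5 and Canx, which the rule did not keep. AP-1 (TGANTCA) was found for 6 of the 71 genes (8.45%) against 8.97% of all genes and 6.32% of the 10341 genes at 2 CPM or more. TEAD (CATTCC) was found for 13 (18.3%) against 16.6% and 14.7%, and the cyclic AMP response element (TGACGTCA) for 2 (2.82%) against 2.03% and 3.51%. The heat shock element (GAA, TTC and GAA with any 2 bases between each) was found for 1 gene, Hsph1 (1.41% against 0.662% and 0.58%), the MEF2 motif for 1, Xirp2 (1.41% against 0.636% and 0.648%), and the SRF motif (CArG) for 0 against 1.81% and 1.59%. A match describes letters only, and its absence from this window says nothing of the factor. The promoters of a pair of cardiomyocyte stress genes are shown as well, with the MEF2 motif of Xirp2 (chr2:67445752-67446001, plus strand) and the TEAD motif of Nppb (chr4:147985650-147985899, plus strand) in capitals. The Nppb window runs past the gene start of 147985786 in the RefSeq gene record, so its TEAD motif lies inside the gene by that record.
Xirp2: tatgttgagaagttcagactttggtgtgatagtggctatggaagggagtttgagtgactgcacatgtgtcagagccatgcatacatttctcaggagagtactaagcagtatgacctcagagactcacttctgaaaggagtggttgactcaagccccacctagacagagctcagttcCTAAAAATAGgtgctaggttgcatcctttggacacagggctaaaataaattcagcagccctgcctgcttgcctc
Nppb: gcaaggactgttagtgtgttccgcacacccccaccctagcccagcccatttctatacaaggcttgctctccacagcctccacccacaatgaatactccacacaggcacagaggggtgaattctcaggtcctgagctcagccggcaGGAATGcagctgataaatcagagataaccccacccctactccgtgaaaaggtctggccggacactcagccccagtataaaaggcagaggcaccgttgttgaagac

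Over all 99 genes the median log2 ratio was 0.78 for ISO/PE over ISO, 0.61 for ISO/PE over Ctr and -0.16 for ISO over Ctr, against 0.05, 0.09 and 0.05 over all genes. They were thus all higher in ISO/PE than in ISO, but not all higher than in control hearts. In 71 of 99 every ISO/PE heart was above every Ctr heart, a pattern that 37.0% of the 13058 genes at 2 CPM or more showed. The ratio of ISO/PE over Ctr was at least 0.6 for 53 genes, between 0 and 0.6 for 42, and below 0 for 4 (Phlda1, Igfbp3, Nrg1 and Kcna4). In 31 of 99 every ISO heart was below every Ctr heart (15.5% of the 13058 genes), and 15 had an ISO over Ctr ratio of -0.5 or less, whereas 34 lay above -0.1. The set therefore holds genes that were near control in ISO hearts and above it in ISO/PE hearts, and genes that were below control in ISO hearts and near it in ISO/PE hearts.

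**Figure D1:**
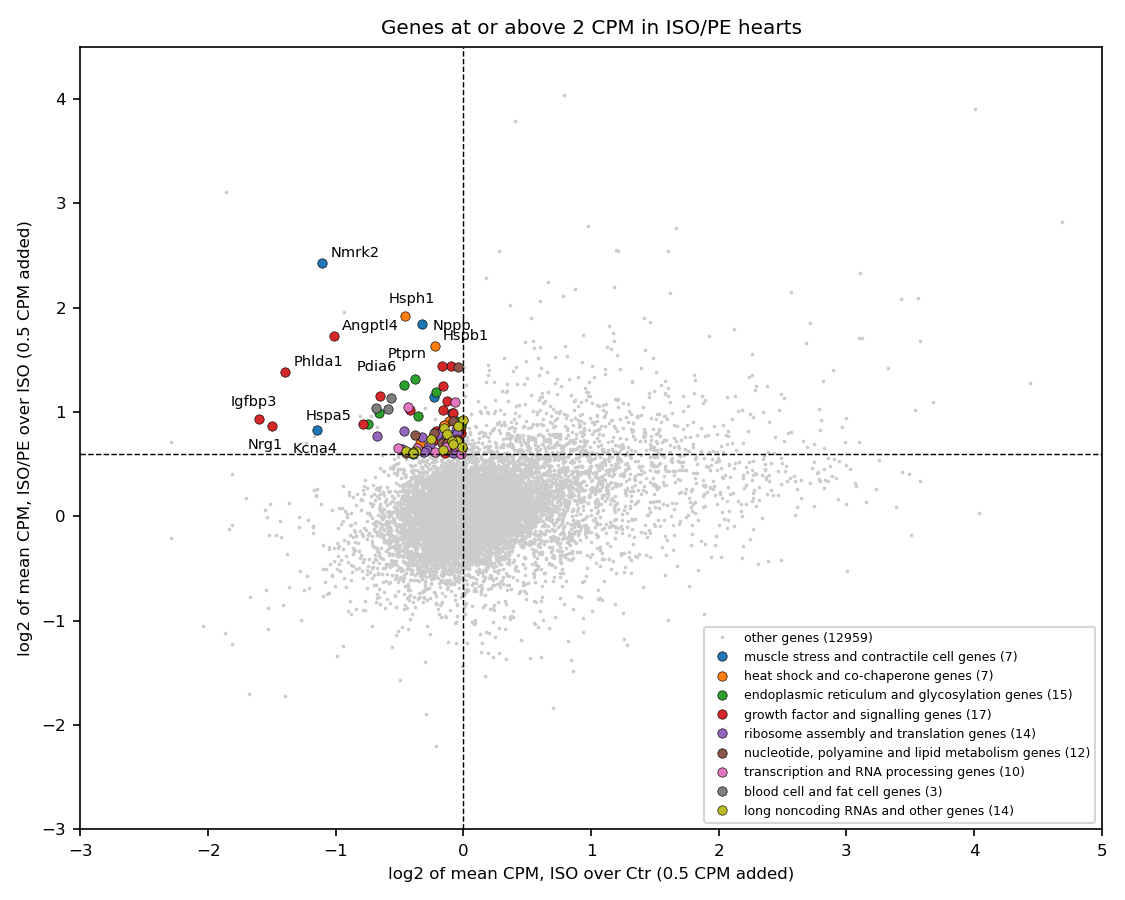
Each point is a gene with a mean of 2 CPM or more in ISO/PE hearts, placed by log2 of mean CPM in ISO over Ctr (x axis) and in ISO/PE over ISO (y axis), with 0.5 CPM added to each mean. Coloured points are the 99 genes by role, grey points are all others, and the dashed lines are the limits of 0 and 0.6 that chose them; Nmrk2 is the highest at 2.43, Igfbp3 is the farthest left of the 99 at -1.60, and 3 other genes fall outside the axes.

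An edgeR quasi-likelihood fit over all 9 hearts called genes at an adjusted p under 0.05 and a log2 fold change past 0.6. It called 71 of the 99 higher in ISO/PE vs. ISO (background 3.64% of 14426 genes), 25 higher in ISO/PE vs. Ctr (background 16.0%), 2 lower in ISO/PE vs. Ctr (Igfbp3 and Nrg1, background 10.1%) and 11 lower in ISO vs. Ctr (background 2.99%). Over all genes 2.81% were called lower in ISO/PE vs. ISO and 10.4% higher in ISO vs. Ctr. These counts follow in part from how the genes were selected, and nothing is read from them. ISO/PE vs. ISO and ISO vs. Ctr share the ISO hearts, so a low ISO value enlarges the first difference and lowers the second. With libraries scaled to their total counts, as in the choice of the genes, 51 were called higher in ISO/PE vs. Ctr. Without ISO female2, the lowest ISO heart for 54 of the 99 genes, 44 were called higher in ISO/PE vs. ISO, and without ISO/PE male1, the lowest ISO/PE heart for 64 of them, 40 were called higher in ISO/PE vs. Ctr.

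The genes just inside the limit of 0.6 were Clic5 (0.601), Ell2 (0.601) and Fdx2 (0.602), and those just outside were Zfp53 (0.599), Zfp37 (0.59) and Tmc4 (0.59). At the limit of 0, Hectd2os (-0.00075), Nhp2 (-0.01) and Gm15772 (-0.01) were inside and the ribosomal protein genes Rps16 (0.0016), Rpl26 (0.0026) and Rpl13 (0.0039) were outside. Another 22 genes met both ratios and were dropped because their ISO/PE and ISO hearts overlapped. The largest of these was Myh7, the slow myosin heavy chain, with 2042, 132 and 710.5 CPM in ISO/PE hearts and 104, 134 and 94.5 CPM in ISO hearts.

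**Figure D2:**
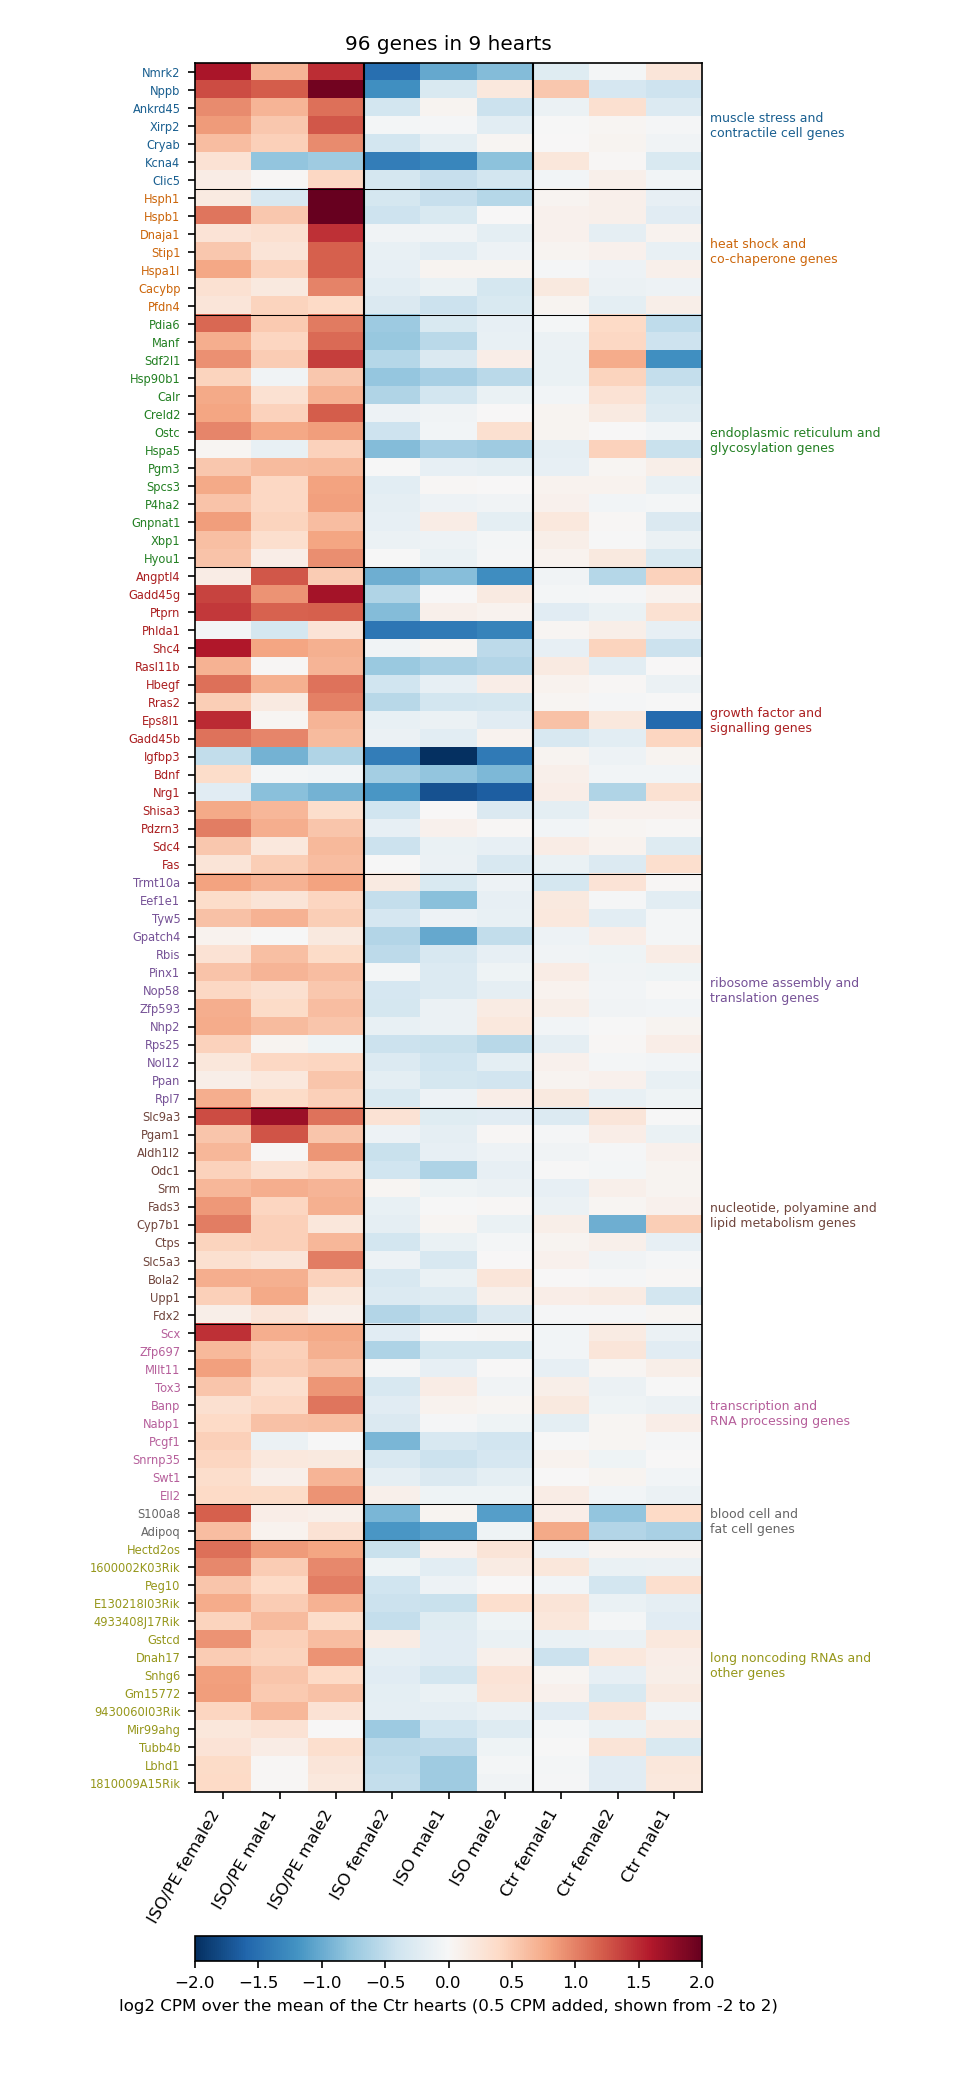
Rows are 96 of the 99 genes grouped by role and columns the 9 hearts, ISO/PE, then ISO, then Ctr; colour is log2 CPM over the mean of the Ctr hearts, from -2 (blue) to 2 (red). The median over the 99 genes was 0.58, 0.44 and 0.64 in the ISO/PE hearts, -0.34, -0.22 and -0.12 in the ISO hearts and between -0.04 and 0.01 in the Ctr hearts, and the heat shock rows are darkest in ISO/PE male2.

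Leaving out 1 heart at a time and repeating the choice kept 73 of the 99 without ISO female2 (Gadd45g, Ptprn, Scx, Ostc and Hectd2os among those lost) and 83 without ISO/PE male2, and without ISO male2 the same conditions gave 212 genes, 95 of them among the 99. Of the 99, 36 kept their place without each of the 9 hearts in turn and with TMM library sizes. Outside the chaperone groups, the ratio over ISO without ISO/PE male2 was under the limit for Slc5a3 (0.41), Banp (0.40), Ell2 (0.41), Clic5 (0.48), Ppan (0.48), Swt1 (0.45), Tox3 (0.51), Fas (0.52), Dnah17 (0.57) and Tubb4b (0.58). Without ISO/PE female2 it was 0.39 for Kcna4, 0.44 for Cyp7b1, 0.45 for Pcgf1, 0.46 for Rps25 and 0.51 for Rpl7, also under the limit. Lbhd1 (0.53), 1810009A15Rik (0.52), Eps8l1 (0.55), Snhg6 (0.57), Zfp593 (0.59) and some others were likewise under it without that heart. For S100a8 the ratio without ISO/PE female2 was 0.68, but the gene was still lost. Its levels in ISO/PE male1 and male2, 1.63 and 1.57 CPM, are under the limit of 2 CPM. In what follows the hearts are listed as female2, male1 and male2 for ISO/PE and for ISO, and as female1, female2 and male1 for Ctr, and ratios are log2 ratios of mean CPM. Muscle stress and contractile cell genes were the first group, 7 in number. Nmrk2, the muscle kinase that turns nicotinamide riboside into an NAD precursor, had 47.4, 24.3 and 42.3 CPM in ISO/PE hearts, 4.93, 7.10 and 7.95 CPM in ISO hearts and 12.5, 14.5 and 17.8 CPM in Ctr hearts. The 3 groups did not overlap: ISO/PE hearts were the highest and ISO hearts the lowest. Its ratio of 2.43 for ISO/PE over ISO was the largest of the 99, and that of ISO over Ctr was -1.11. In the fit the ISO/PE vs. ISO difference was 2.46 ± 0.25 on the log2 scale (SE, n = 3 each). Every SE given here is the size of the log2 difference divided by the square root of its F statistic. The spread behind it was estimated over all 9 hearts.

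Nppb, which encodes the precursor of B-type natriuretic peptide, had 579, 543 and 889 CPM in ISO/PE hearts, 99.9, 189.9 and 270.0 CPM in ISO hearts and 340.4, 186 and 175 CPM in Ctr hearts. All ISO/PE hearts were above the other 6, while ISO and Ctr hearts overlapped. The fitted difference was 1.80 ± 0.35 for ISO/PE vs. ISO and 1.41 ± 0.35 for ISO/PE vs. Ctr. Its place among these genes rests on Ctr female1, the highest Ctr heart: without it the ISO over Ctr ratio was 0.05, above the limit of 0. Xirp2, an actin-binding Xin repeat protein of the intercalated disc and a target of MEF2, had 938, 758 and 1224 CPM in ISO/PE hearts, against 508, 514 and 447 CPM in ISO hearts and 516, 534 and 509.7 CPM in Ctr hearts. The ISO hearts were within or just below the Ctr range, and each ISO/PE heart was above both.

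Cryab, a small heat shock protein that protects desmin and other filament proteins in muscle, had 3658, 3308 and 4588 CPM in ISO/PE hearts, 1848, 2090.1 and 2445 CPM in ISO hearts and 2399, 2485 and 2265 CPM in Ctr hearts. As for Xirp2, only the ISO/PE hearts stood apart, with a ratio over ISO of 0.86. Ankrd45, an ankyrin repeat gene, had the same order at low level (ratio 1.15). Clic5, a chloride intracellular channel protein, differed in form: 424, 392.1 and 514 CPM in ISO/PE hearts, 300.0, 278 and 298 CPM in ISO hearts and 371, 410.0 and 371 CPM in Ctr hearts, so that ISO/PE overlapped Ctr and ISO was below both. Kcna4, which encodes the Kv1.4 potassium channel, had 3.52, 1.40 and 1.499 CPM in ISO/PE hearts, 0.759, 0.836 and 1.37 CPM in ISO hearts and 3.35, 2.86 and 2.16 CPM in Ctr hearts, and its ISO/PE mean, which rests on ISO/PE female2, lay between those of ISO and Ctr. The summed cardiomyocyte markers were lowest in the ISO/PE hearts, and the part of cell composition in the levels of these genes was not tested.

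Of the 20 natriuretic peptide and cardiomyocyte stress genes on the list, 3 were kept by the rule (Nmrk2, Nppb and Xirp2), and 6 met its conditions against ISO but had ISO above Ctr. In the fit 9 of 20 were higher in ISO/PE vs. ISO (6 without ISO female2) and 0 lower, beside 3.64% and 2.81% of all genes. In ISO/PE vs. Ctr 11 were higher (9 without ISO/PE male2) and 0 lower, beside 16.0% and 10.1%. ISO vs. Ctr gave 3 higher and 2 lower (1 lower without ISO female2), beside 10.4% and 2.99%. The median fitted log2 difference was 0.66 for ISO/PE vs. ISO and -0.06 for ISO vs. Ctr, beside about 0 (-0.0045 and -0.0051) over all genes. Nppa, the atrial natriuretic peptide gene and closest relative of Nppb, was at 1886, 1471 and 1134 CPM in ISO/PE hearts, 382, 718 and 1016 CPM in ISO hearts and 302, 367 and 385 CPM in Ctr hearts. It was thus above control in 2 of 3 ISO hearts and not kept, while Nppb was kept.

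**Figure D3:**
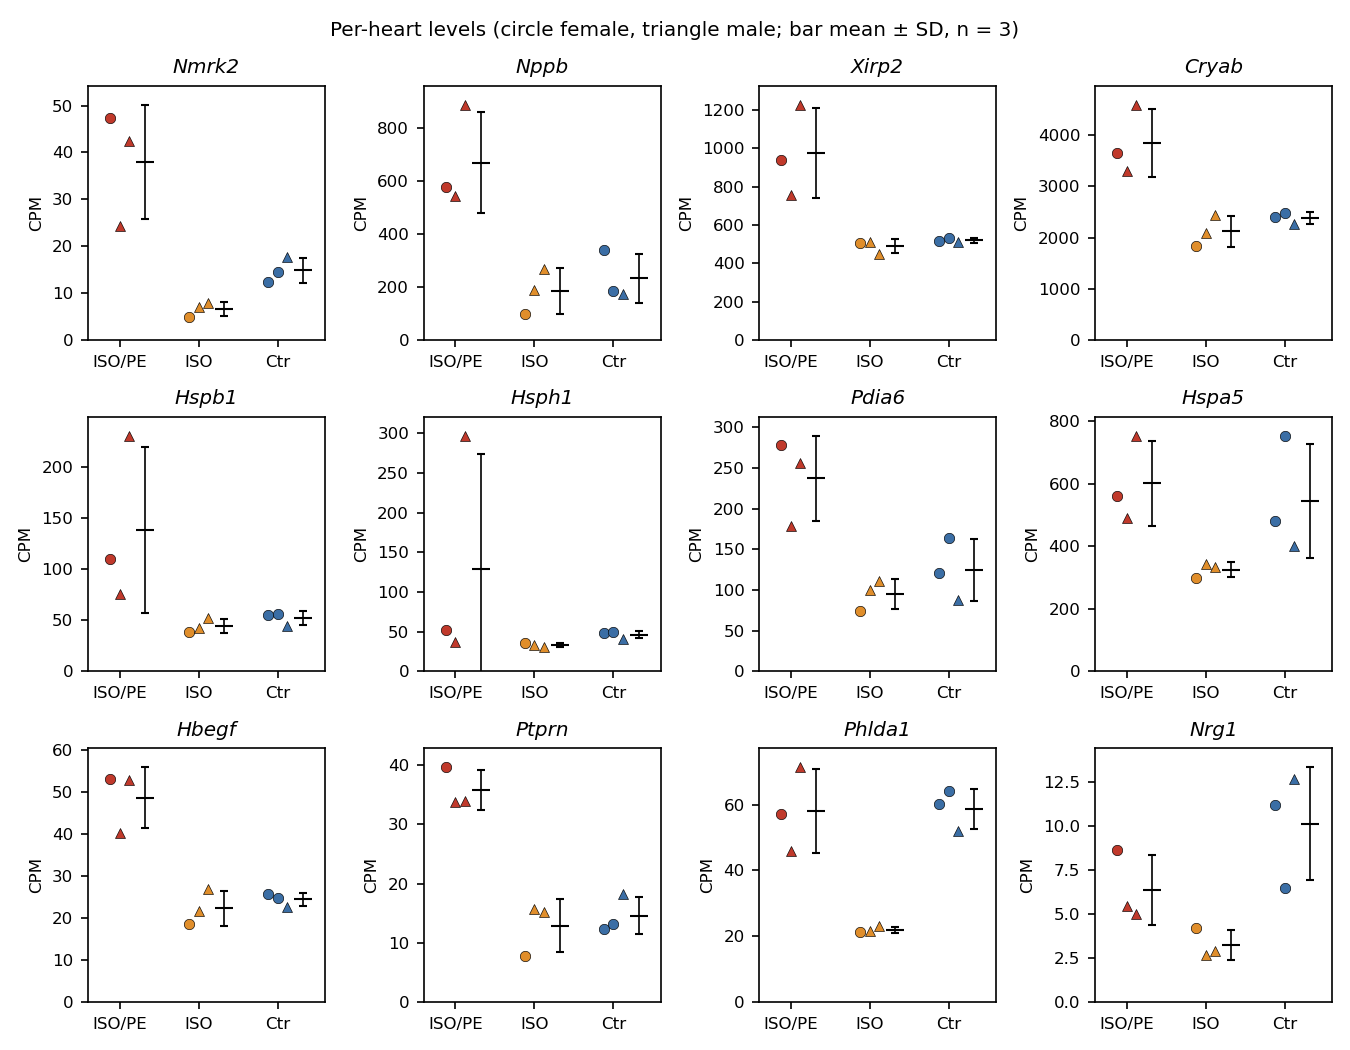
CPM (y axis, from 0) of 12 genes in each heart, in the order ISO/PE, ISO and Ctr; circles are females, triangles males, and the bar beside each group is its mean ± SD (n = 3). Nppb and Xirp2 are high in the 3 ISO/PE hearts only, Phlda1 is low in the 3 ISO hearts only, and the SD of Hsph1 in ISO/PE hearts reaches below 0 because ISO/PE male2 is at 297 CPM.

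Cytosolic chaperones and co-chaperones gave 7 genes, and here library ISO/PE male2 decided several values. Hsph1, an Hsp110 that recharges Hsp70 with ATP, had 52.8, 37.0 and 297 CPM in ISO/PE hearts, 36.0, 33.7 and 31.0 CPM in ISO hearts and 48.0, 49.9 and 41.1 CPM in Ctr hearts. ISO/PE male2 was far above every other heart, and of the other ISO/PE hearts female2 was just above and male1 just below the Ctr range. Its ratio over ISO was 1.92 with all hearts and 0.41 without ISO/PE male2, below the limit. Dnaja1, an Hsp40 partner of Hsp70, had 16.2, 16.7 and 37.5 CPM in ISO/PE hearts, against 12.6, 12.6 and 11.6 CPM in ISO hearts and 14.2, 11.7 and 14.1 CPM in Ctr hearts, and its ratio over ISO was 0.41 without that heart. Stip1, which bridges Hsp70 and Hsp90, had 163, 135 and 258 CPM in ISO/PE hearts, 101, 96.8 and 105 CPM in ISO hearts and 117, 119 and 101 CPM in Ctr hearts. Without ISO/PE male2 the ratio over ISO was 0.56 for Stip1 and 0.48 for the calcyclin-binding protein gene Cacybp, so that both also missed the limit.

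Hspb1, the small heat shock protein Hsp27, kept its place. It had 109, 75.6 and 230.1 CPM in ISO/PE hearts, 38.8, 42.2 and 52.3 CPM in ISO hearts and 55.6, 56.0 and 44.5 CPM in Ctr hearts. All ISO/PE hearts exceeded the rest, and the ratio over ISO was 1.63 with and 1.05 without ISO/PE male2. Hspa1l, an Hsp70 known from testis, had 18.03, 14.5 and 24.3 CPM in ISO/PE hearts, 9.18, 10.8 and 10.8 CPM in ISO hearts and 10.2, 9.64 and 11.2 CPM in Ctr hearts, but 71.9% of its exon bases lie in exons of a gene on the opposite strand and the counting ignored strand. Pfdn4, a prefoldin subunit that hands actin and tubulin to their folding machine, had a ratio of 0.70 over ISO.

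Among the 22 genes of the heat shock and co-chaperone list, 6 were kept (Hsph1, Hspb1, Dnaja1, Stip1, Cacybp and Cryab), and 2 of them (Hspb1 and Cryab) without ISO/PE male2. In the fit 7 of 22 were higher in ISO/PE vs. ISO and 0 lower, beside 3.64% and 2.81% of all genes. In ISO/PE vs. Ctr 6 were higher (4 without ISO/PE male2) and 3 lower, beside 16.0% and 10.1%. ISO vs. Ctr gave 0 higher and 3 lower, beside 10.4% and 2.99%. The median log2 difference was 0.53 for ISO/PE vs. ISO and -0.22 for ISO vs. Ctr. The count higher in ISO/PE vs. ISO was 3 without ISO/PE male2 and 2 without ISO female2. The inducible Hsp70 genes Hspa1a and Hspa1b, which share nearly all of their sequence, show the same heart: Hspa1a had 4.84, 3.42 and 93.0 CPM in ISO/PE hearts, 1.67, 2.34 and 1.93 CPM in ISO hearts and 2.26, 0.982 and 0.885 CPM in Ctr hearts. They were not kept because the ISO mean was above the Ctr mean.

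ER folding and glycosylation genes made up 15 of the 99, and 9 of the 20 genes on the ER list were kept. Pdia6, a disulfide isomerase, had the largest ratio over ISO of this group: 278, 179 and 256 CPM in ISO/PE hearts, 74.7, 100.4 and 111 CPM in ISO hearts and 122, 164 and 87.7 CPM in Ctr hearts. ISO/PE hearts did not overlap the others, and Ctr female2 was the highest of the other 6. The fitted difference was 1.26 ± 0.23 for ISO/PE vs. ISO and 0.81 ± 0.22 for ISO/PE vs. Ctr. Manf, a secreted factor that is retained in the ER with the chaperone BiP, had 108, 87.2 and 143 CPM in ISO/PE hearts, 38.0, 44.4 and 58.5 CPM in ISO hearts and 59.99, 86.5 and 48.4 CPM in Ctr hearts. Again the lowest ISO/PE heart lay above all others, but only narrowly over Ctr female2.

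Hspa5, which encodes BiP, the main Hsp70 of the ER, had 562, 491 and 753 CPM in ISO/PE hearts, 299, 344 and 334 CPM in ISO hearts and 482, 752 and 403 CPM in Ctr hearts. ISO/PE and Ctr hearts overlapped, and the ISO hearts were below every one of them. Hsp90b1, the ER member of the Hsp90 family, repeated this with 639, 445 and 682 CPM in ISO/PE hearts, 272, 295 and 321 CPM in ISO hearts and 426, 639.6 and 336 CPM in Ctr hearts. The ISO over Ctr ratio was -0.74 for Hspa5 and -0.66 for Hsp90b1, and without Ctr female2 it was -0.44 and -0.37. Ctr female2 was the highest Ctr heart for 8 of the 9 kept genes of the list, and 14 of all 20.

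Calr, a lectin chaperone that also buffers ER calcium, had 734, 537 and 704 CPM in ISO/PE hearts, 287, 335 and 394 CPM in ISO hearts and 418, 529 and 351 CPM in Ctr hearts. Here the lowest ISO/PE heart was just above the highest Ctr heart. Creld2, an ER stress-induced disulfide isomerase, had 27.5, 21.8 and 37.1 CPM in ISO/PE hearts, 14.6, 14.9 and 15.7 CPM in ISO hearts and 16.3, 17.8 and 13.1 CPM in Ctr hearts, with ISO within the Ctr range. Sdf2l1, a partner of BiP, spread widely among controls: 22.1, 16.5 and 30.7 CPM in ISO/PE hearts, 7.59, 9.27 and 12.6 CPM in ISO hearts and 10.4, 19.5 and 4.62 CPM in Ctr hearts. Xbp1, the transcription factor spliced by IRE1, had a ratio of 0.67 over ISO and Hyou1, the Hsp110 of the ER, 0.63, and both missed the limit without ISO/PE male2. The other 7 of the 9 genes kept their place without it.

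Genes of other steps of the secretory pathway had the same order. Ostc, a subunit of the complex that attaches sugar chains to new proteins, had 129, 112 and 117 CPM in ISO/PE hearts, 48.6, 62.7 and 81.2 CPM in ISO hearts and 67.5, 65.4 and 62.3 CPM in Ctr hearts, so that only the ISO/PE hearts stood apart. The ratio over ISO was 0.73 for the signal peptidase subunit Spcs3, 0.73 and 0.71 for Pgm3 and Gnpnat1 of the hexosamine pathway and 0.72 for the collagen prolyl hydroxylase P4ha2. For Gnpnat1, 83.5% of exon bases lie in exons of a gene on the opposite strand. The summed level of the 20 listed ER genes was 4171, 3325 and 4498 CPM in ISO/PE hearts, 2262, 2329 and 2497 CPM in ISO hearts and 2802, 3589 and 2506 CPM in Ctr hearts. Activated fibroblast markers were also higher in the ISO/PE hearts than in the ISO hearts, and their part in these levels was not tested.

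Of the genes of the PERK and ATF4 branch on the ER list (Ddit3, Atf4, Trib3, Chac1 and Sesn2, picked out after their values were seen) none was kept, and their ISO/PE over ISO ratios ran from -0.17 for Chac1 to 0.22 for Trib3. These genes do not stand for the whole branch. Atf3 and the amino acid genes are on other lists. Atf3, highest in ISO/PE male2, had a fitted ISO/PE vs. ISO difference of 1.42 ± 0.33. Of 19 amino acid genes tested, 6 were higher and 0 lower in ISO/PE vs. ISO. The disulfide isomerase genes Pdia3 and Pdia4 met the conditions against ISO (0.98 and 1.11) but had ISO above Ctr (0.32 and 0.25). In the fit 9 of the 20 ER genes were higher in ISO/PE vs. ISO and 0 lower, beside 3.64% and 2.81% of all genes. In ISO/PE vs. Ctr 6 were higher and 0 lower, beside 16.0% and 10.1%. In ISO vs. Ctr 1 was higher and 3 lower, beside 10.4% and 2.99%. The median log2 differences were 0.60, 0.48 and -0.20 in that order. Without ISO female2, 7 of the 20 were higher in ISO/PE vs. ISO and 1 was lower in ISO vs. Ctr. Without ISO/PE male2, 7 were higher in ISO/PE vs. ISO, and 4 were higher and 1 lower in ISO/PE vs. Ctr.

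**Figure D4:**
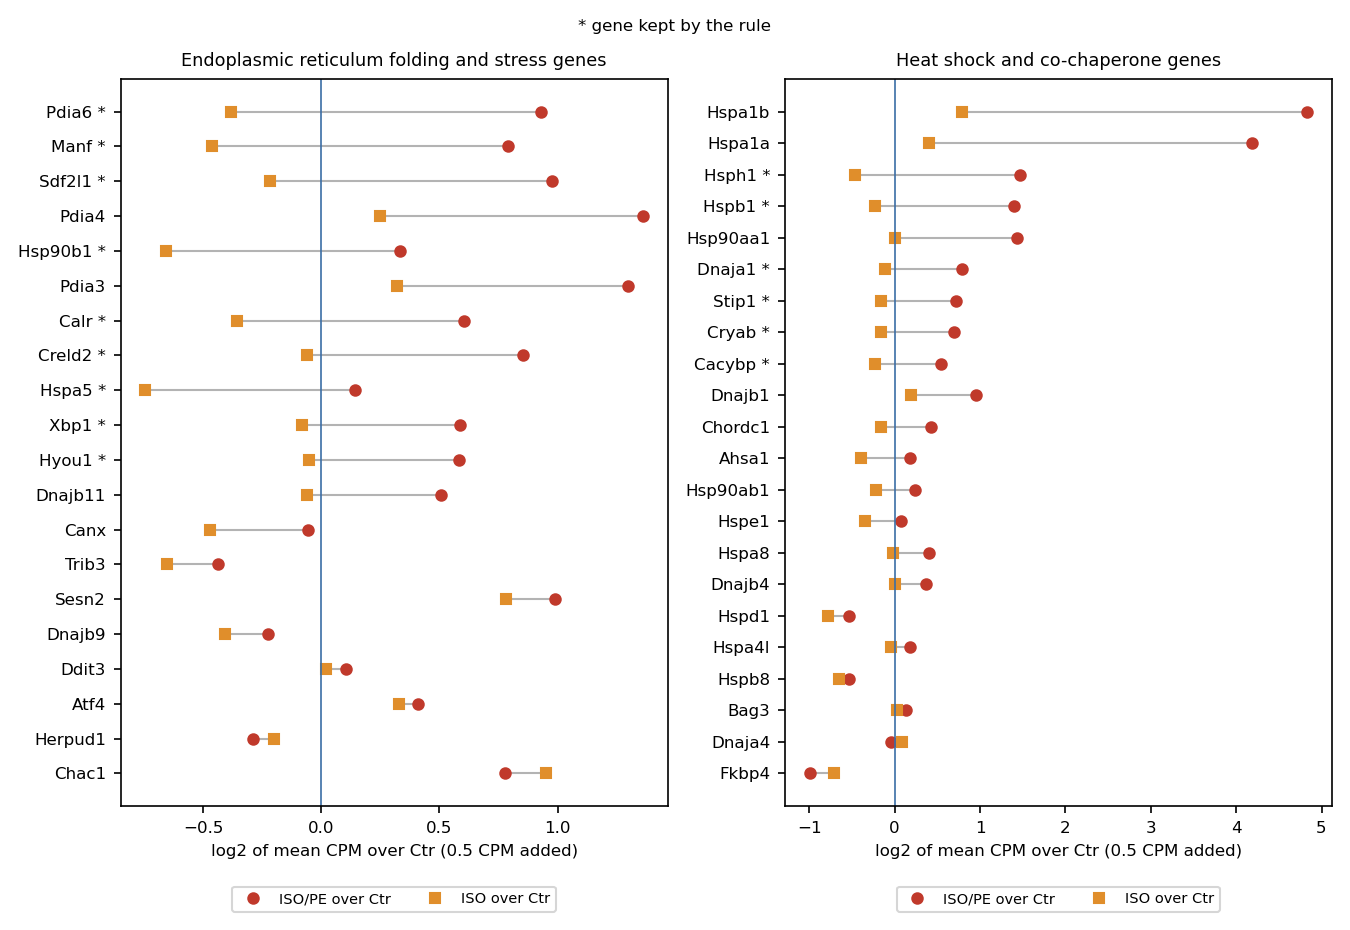
Log2 of mean CPM over the Ctr mean (x axis, 0.5 CPM added) for ISO/PE (red circles) and ISO (orange squares), for the 20 genes of the ER list and the 22 genes of the heat shock list, ordered by the distance between the pair; an asterisk marks the 9 and 6 genes kept. For Hspa5 and Hsp90b1 the ISO square lies at -0.74 and -0.66 and the ISO/PE circle at 0.14 and 0.33, while Hspa1a and Hspa1b reach 4.19 and 4.83 through ISO/PE male2.

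Growth factors, receptors and signalling proteins formed the largest group with 17 genes. Hbegf, an EGF receptor ligand shed from the cell surface, had 52.98, 40.2 and 52.7 CPM in ISO/PE hearts, 18.5, 21.6 and 26.8 CPM in ISO hearts and 25.8, 24.9 and 22.6 CPM in Ctr hearts. Only the ISO/PE hearts stood apart, with a fitted difference of 1.07 ± 0.14 from ISO. Nrg1, which activates ErbB4 on cardiomyocytes, had 8.63, 5.44 and 5.02 CPM in ISO/PE hearts, 4.25, 2.67 and 2.89 CPM in ISO hearts and 11.2, 6.51 and 12.7 CPM in Ctr hearts. Its ISO hearts were the lowest, and the ISO/PE hearts overlapped the lower end of Ctr, with a fitted ISO/PE vs. Ctr difference of -0.78 ± 0.27. These EGF family ligands thus differed in form: Hbegf was near control under ISO and above it under ISO/PE, and Nrg1 below control under both.

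Bdnf, a neurotrophin, had 11.3, 8.40 and 8.32 CPM in ISO/PE hearts, 5.23, 4.85 and 4.42 CPM in ISO hearts and 9.32, 8.39 and 8.36 CPM in Ctr hearts, so that it was low in ISO alone. Phlda1, a pleckstrin homology-like domain gene, had a like form with 57.0, 45.8 and 71.4 CPM in ISO/PE hearts, 21.2, 21.6 and 23.1 CPM in ISO hearts and 60.1, 64.1 and 52.1 CPM in Ctr hearts. ISO/PE and Ctr hearts overlapped fully, and the fitted ISO vs. Ctr difference was -1.48 ± 0.15. Igfbp3, an IGF-binding protein, had 61.5, 44.4 and 57.0 CPM in ISO/PE hearts, 32.6, 19.9 and 32.1 CPM in ISO hearts and 89.3, 80.1 and 89.6 CPM in Ctr hearts, with no overlap between the groups. Angptl4, an inhibitor of lipoprotein lipase, had 13.1, 28.6 and 16.9 CPM in ISO/PE hearts, 5.77, 6.27 and 4.66 CPM in ISO hearts and 11.1, 7.76 and 16.4 CPM in Ctr hearts, and its ISO/PE hearts overlapped Ctr.

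Ptprn, a dense-core vesicle protein of neuroendocrine cells, had 39.6, 33.8 and 34.0 CPM in ISO/PE hearts, 7.74, 15.7 and 15.3 CPM in ISO hearts and 12.4, 13.2 and 18.2 CPM in Ctr hearts. Gadd45g and Gadd45b, stress-induced partners of p38 kinase signalling, shared this order. Gadd45g had 33.3, 24.1 and 41.5 CPM in ISO/PE hearts, 8.19, 12.8 and 14.5 CPM in ISO hearts and 12.3, 12.5 and 13.4 CPM in Ctr hearts, and Gadd45b 18.4, 17.03 and 13.3 CPM in ISO/PE hearts, 7.66, 7.19 and 8.84 CPM in ISO hearts and 6.61, 7.14 and 11.4 CPM in Ctr hearts. For all 3 genes every ISO/PE heart was above the other 6.

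Small GTPases and adaptors followed. Rras2, a Ras relative, had 108, 87.3 and 155 CPM in ISO/PE hearts, 52.3, 59.5 and 60.3 CPM in ISO hearts and 78.8, 75.5 and 76.7 CPM in Ctr hearts, and the 3 groups did not overlap. Rasl11b had 69.8, 43.5 and 68.8 CPM in ISO/PE hearts, 25.5, 27.1 and 28.5 CPM in ISO hearts and 48.5, 37.1 and 43.1 CPM in Ctr hearts, where ISO/PE and Ctr overlapped. The Shc family adaptor gene Shc4 (ratio 1.25) and the matrix receptor gene Sdc4 (0.72) had every ISO/PE heart above every Ctr heart, as had Shisa3 (0.82) and the ubiquitin ligase gene Pdzrn3 (0.80). Eps8l1 (1.02) and the death receptor gene Fas (0.61) overlapped Ctr.

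On the list of 30 growth factor and cytokine ligands, 27 had a transcript in both tables. Hbegf, Nrg1 and Bdnf were kept, and 8 others met the conditions against ISO with ISO above Ctr. In the fit 10 of 25 tested were higher in ISO/PE vs. ISO and 0 lower. Over all genes 3.64% were higher and 2.81% lower in that comparison. Of the CDK inhibitors and p53 targets, 2 of 20 were kept (Gadd45b and Gadd45g), and 4 were higher and 2 lower in ISO/PE vs. ISO. None of the 16 MAPK feedback genes was kept, and 0 were higher and 0 lower in ISO/PE vs. ISO. In ISO/PE vs. Ctr 3 of the 16 were higher and 2 lower, beside 16.0% and 10.1% of all genes. Without ISO female2, 6 of the ligands and 2 of the CDK inhibitors and p53 targets were higher in ISO/PE vs. ISO.

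Ribosome assembly and translation gave 14 genes with ratios over ISO of 0.61 to 0.82. Nop58, a core protein of the box C/D particles that guide methylation of ribosomal RNA, had 30.0, 28.2 and 32.8 CPM in ISO/PE hearts, 17.6, 18.4 and 19.7 CPM in ISO hearts and 23.3, 21.4 and 22.2 CPM in Ctr hearts. The groups did not overlap, with Ctr between the others. Nhp2, of the box H/ACA particles, had 42.6, 39.7 and 37.4 CPM in ISO/PE hearts, 22.7, 23.2 and 29.5 CPM in ISO hearts and 24.3, 25.2 and 26.4 CPM in Ctr hearts, with ISO and Ctr together. Gpatch4, a nucleolar protein, had 13.4, 12.6 and 14.6 CPM in ISO/PE hearts, 8.27, 6.02 and 8.92 CPM in ISO hearts and 11.9, 13.9 and 12.3 CPM in Ctr hearts, so that ISO alone was low.

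The nucleolar genes Ppan, Pinx1, Nol12, Rbis and Zfp593 had ratios over ISO of 0.62, 0.76, 0.64, 0.76 and 0.67. Zfp593 and the long noncoding RNA E130218I03Rik, also among the 99, lie on opposite strands with 77.9% and 76.6% of their exon bases in each other, and without strand their reads cannot be told apart. Eef1e1 of the aminoacyl-tRNA synthetase complex (0.82) and the tRNA-modifying enzymes Trmt10a (0.82) and Tyw5 (0.79) were also kept. The ribosomal protein genes Rpl7 (0.61) and Rps25 (0.64) are uncertain, since reads of such genes can fall on near-identical pseudogenes. On the list of 20 ribosome biogenesis genes only Nop58 was kept. In ISO/PE vs. ISO 1 was higher (0 without ISO/PE male2) and 0 lower, beside 3.64% and 2.81% of all genes.

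Metabolic enzymes and transporters were 12. Odc1, the rate-limiting enzyme of polyamine synthesis, had 29.6, 26.7 and 28.8 CPM in ISO/PE hearts, 16.2, 13.9 and 19.0 CPM in ISO hearts and 21.4, 20.8 and 22.2 CPM in Ctr hearts. The groups did not overlap and ISO was lowest. Srm, spermidine synthase in the same pathway, had 32.4, 34.1 and 32.8 CPM in ISO/PE hearts, 21.0, 19.2 and 18.6 CPM in ISO hearts and 18.2, 21.8 and 21.1 CPM in Ctr hearts, with ISO and Ctr together. Ctps, which makes CTP, had 47.7, 48.4 and 55.5 CPM in ISO/PE hearts, 26.9, 31.7 and 33.7 CPM in ISO hearts and 36.0, 37.4 and 30.8 CPM in Ctr hearts. Slc9a3, a sodium-proton exchanger, had 5.60, 7.62 and 4.72 CPM in ISO/PE hearts, 2.503, 1.59 and 1.61 CPM in ISO hearts and 1.54, 2.41 and 1.97 CPM in Ctr hearts, the largest ratio of this group (1.43) at a low level.

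Others were Aldh1l2 of mitochondrial folate metabolism (0.80 over ISO), the uridine phosphorylase gene Upp1 (0.63), the inositol transporter gene Slc5a3 (0.70), the fatty acid desaturase family gene Fads3 (0.72), the oxysterol hydroxylase gene Cyp7b1 (0.71) and the iron-sulphur protein genes Fdx2 (0.60) and Bola2 (0.69). Pgam1, a glycolytic enzyme, had 1.73, 3.11 and 1.72 CPM in ISO/PE hearts, 0.91, 0.836 and 1.04 CPM in ISO hearts and 0.995, 1.16 and 0.885 CPM in Ctr hearts. Such levels are low for a glycolytic gene and near-identical copies exist, so the value is uncertain. Of 20 listed glycolysis genes 2 were higher and 3 lower in ISO/PE vs. ISO, beside 3.64% and 2.81% of all genes. Of 20 listed amino acid transport and serine synthesis genes only Aldh1l2 was kept, and 6 of 19 tested were higher and 0 lower. Without ISO/PE male2 or without ISO female2, 2 of the amino acid genes were higher, and without ISO female2 the glycolysis counts were 1 higher and 0 lower.

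Transcription and RNA processing gave 10 genes. Scx, the tendon and fibroblast transcription factor scleraxis, had 32.7, 19.4 and 19.9 CPM in ISO/PE hearts, 9.71, 11.5 and 11.7 CPM in ISO hearts and 11.0, 12.9 and 10.5 CPM in Ctr hearts. Only ISO/PE stood apart. Zfp697, a zinc finger gene, had 24.9, 22.1 and 26.0 CPM in ISO/PE hearts, 10.1, 12.2 and 12.3 CPM in ISO hearts and 15.2, 18.7 and 13.4 CPM in Ctr hearts, with no overlap between groups and ISO lowest. The remaining 8, among them the elongation factor gene Ell2 and the Polycomb subunit gene Pcgf1, had ratios over ISO of 0.60 to 0.70, and all of the 10 but Pcgf1 had every ISO/PE heart above every Ctr heart.

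Some genes mark other cells and are near the detection limit. S100a8 of neutrophils had 3.94, 1.63 and 1.57 CPM in ISO/PE hearts, 0.531, 1.504 and 0.402 CPM in ISO hearts and 1.63, 0.625 and 2.06 CPM in Ctr hearts. Adipoq of fat cells had 3.32, 2.10 and 2.55 CPM in ISO/PE hearts, 0.607, 0.668 and 1.85 CPM in ISO hearts and 3.71, 1.16 and 1.081 CPM in Ctr hearts. In both genes the ISO/PE hearts overlapped Ctr, and S100a8 was not kept without ISO/PE female2. The 3 measured of 8 listed neutrophil markers summed to 4.20 to 12.8 CPM in ISO/PE hearts, 2.58 to 4.09 CPM in ISO hearts and 1.43 to 7.77 CPM in Ctr hearts. Adipocyte markers, 5 of 6 measured, summed to 13.9 to 20.4 CPM in ISO/PE hearts, 3.43 to 13.5 CPM in ISO hearts and 6.68 to 17.6 CPM in Ctr hearts, and the part of such cells in these levels was not tested.

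The last 14 genes were mostly long noncoding RNAs and genes with no role given here. Hectd2os, a noncoding RNA antisense to Hectd2, had 37.0, 31.0 and 29.7 CPM in ISO/PE hearts, 12.4, 18.1 and 20.5 CPM in ISO hearts and 15.7, 17.7 and 17.6 CPM in Ctr hearts, but 46.1% of its exon bases overlap Hectd2. Snhg6, a host gene of small nucleolar RNAs, had a ratio of 0.69 and Mir99ahg, the host transcript of a microRNA cluster, 0.63 over ISO. Lbhd1 and 1810009A15Rik overlap on the same strand and had nearly equal values (0.62 and 0.61), so they count as 1 signal. Tubb4b, a beta-tubulin, had 129.7, 119 and 135 CPM in ISO/PE hearts, 73.3, 74.0 and 101 CPM in ISO hearts and 106, 128 and 86.3 CPM in Ctr hearts, with ISO/PE overlapping Ctr. In RefSeq 92 of the 99 genes are protein coding, 6 are long noncoding RNAs and 1 is a transcribed pseudogene.

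Of the 26 collagen and matrix genes 0 were kept and 21 met the conditions against ISO with ISO above Ctr, as did 7 of 20 AP-1 and immediate early genes and 8 of 26 actin cytoskeleton and SRF target genes. The median fitted ISO vs. Ctr difference was 2.38 for the collagen list, 0.75 for the AP-1 list and 0.41 for the actin list. Of 30 genes of alpha1-adrenoceptor, Gq and calcineurin signalling 0 were kept. In the fit 1 was higher and 2 lower in ISO/PE vs. ISO (3 lower without ISO/PE male2 and 1 lower without ISO female2). These counts are near the shares of all genes, 3.64% higher and 2.81% lower. Among 30 ion channel and calcium handling genes and 20 fatty acid genes 0 were kept. In ISO/PE vs. ISO, against 2.81% of all genes, 11 of the 30 ion channel genes were lower (7 without ISO female2) and 4 of the 20 fatty acid genes (7 without ISO/PE male2 and 2 without ISO female2). Of 25 measured inflammatory and chemokine genes S100a8 was kept, and 8 were higher and 1 lower in ISO/PE vs. ISO, against 4 higher without ISO/PE male2 and 2 without ISO female2.

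Sex was not part of the choice and was tested with group in the same model. Between male and female hearts 0 of 99 were called by edgeR, against a background of 0.0693% of 14426 genes, and 0 by DESeq2 and limma-voom. At an unadjusted p under 0.05 there were 5 of 99 (5.05%), beside 4.33% of all genes. The largest difference of males minus females was -0.99 ± 0.30 on the log2 scale for Eps8l1 (SE, adjusted p = 0.946, edgeR quasi-likelihood test with Benjamini-Hochberg adjustment, 5 males and 4 females), and the highest was 0.57. These p-values measure the spread between hearts that the labels name as separate animals.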

How the data were processed

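Polyadenylated RNA of 9 mouse hearts was sequenced. The authors mapped reads to mm10 with STAR and counted them over exons without regard to strand; the labels name featureCounts and the methods another counter. The deposited counts are raw read counts per RefSeq transcript, in 2 tables that share the ISO hearts, and the deposited transcript length (another unit, in bases) was not used in tests. The tables' columns of fold changes and p-values, made with DESeq2, were not used.

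Tables were joined on 29889 shared transcripts, and the transcript with the most reads was kept per gene. Counts were tested with edgeR 4.0.16 (R 4.3.3; TMM, filterByExpr with a minimum count of 10, quasi-likelihood F-test, Benjamini-Hochberg adjustment) in 1 fit of all hearts; a call needs an adjusted p under 0.05 and a log2 difference past 0.6. DESeq2 1.42.0 and limma 3.58.1 were alternatives. The code was tested on simulated data. Depth of 10172249 to 14477063 counts per heart and 3 hearts per group limit the precision.

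The members and lists were chosen with earlier results of these data known. Named were the 15 genes with the largest ISO/PE over ISO ratio, the 10 with the highest ISO/PE level, the 5 with the lowest ISO over Ctr ratio, the 5 with the largest ISO/PE over Ctr ratio and those on a list; others were named for their role after their values were seen. Sequences are from RefSeq (GRCm38.p6). Labels do not say whether hearts sharing a name in different groups are paired. Some of the 99 genes are counted but not reported here by name.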

Additional observations from a re-analysis of the deposited data

Results flagged for a closer look

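A trio of genes had transcripts in the table of ISO/PE and ISO hearts only, so that no Ctr value was used, and met the conditions of the choice against ISO. Alb, serum albumin, averaged 3.37 CPM in ISO/PE hearts, from counts of 1, 1 and 133 in ISO/PE hearts and 0, 0 and 0 in ISO hearts, so that ISO/PE male2 alone gave the level. Crct1, a gene of cornified epithelium, averaged 2.30 CPM in ISO/PE hearts, with counts of 18, 36 and 38 in ISO/PE hearts and 0, 0 and 3 in ISO hearts. Inava averaged 2.14 CPM in ISO/PE hearts, with counts of 30, 32 and 25 in ISO/PE hearts and 5, 7 and 8 in ISO hearts.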

How the results depend on the processing

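The choice gave 23 genes at a log2 limit of 1.0 against ISO and 93 to 212 when 1 heart was left out, the highest without ISO male2. Calls higher in ISO/PE vs. Ctr were 51 with total counts in place of TMM and 23 to 40 with 1 heart left out. Calls lower in ISO/PE vs. Ctr were 1 with total counts, with sex as a term and with the replicate block, and 1 to 3 with 1 heart left out. Calls higher in ISO/PE vs. ISO were 44 to 75 and calls lower in ISO vs. Ctr 8 to 12 with 1 heart left out. Samples sharing a label in ISO/PE and ISO had deviations that correlated at 0.012, -0.052 and -0.12, and those with different labels at -0.10 to 0.14. With 3 hearts per group these values cannot decide whether hearts sharing a label were paired. The replicate block gave 55 genes higher in ISO/PE vs. ISO and 20 in ISO/PE vs. Ctr. With TMM library sizes the choice gave 97 genes, 82 of them among the 99. Of 2322 fitted differences of the 43 named genes under the alternatives, 91 moved by more than 1 SE. None that was called turned its sign, and 28 of those not called did, among them Hsph1 in ISO/PE vs. Ctr, at -0.18 without ISO/PE male2. An interaction of group and sex was fitted after seeing the data; it rests on 1 ISO/PE female, 1 ISO female and 1 Ctr male, and is not reported. List counts without ISO/PE male2 or ISO female2 were chosen after seeing the data, and without ISO/PE male2 the heat shock and ER lists held 2 and 7 of the genes. With 3 hearts per group, 13 of the 99 genes under 5 CPM in ISO/PE hearts are the least precise.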
